A study of Mus musculus with 2 samples.

Results

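Cxcl1, Cxcl2 and Cxcl3 encode chemokines that attract neutrophils, and Cxcr2 encodes the receptor they share. They are 4 of the 55450 genes counted in this single-cell RNA-seq experiment. They were chosen by name, not by a measured value, but with earlier results of these data known. All 4 had UMIs (unique molecular identifiers, each standing for 1 captured RNA molecule) in both libraries. The experiment asked how Kir2.1, the inward-rectifier potassium channel encoded by Kcnj2, affects the tumour microenvironment. B16F10 melanoma cells, an established mouse line, were injected under the skin, and CD45+ cells (leukocytes) were sorted from the tumours at day 10. The WT library came from Kcnj2f/f mice, which carry the floxed allele without Cre. The KO library came from Lyz2-Cre-Kcnj2f/f mice, which carry the same floxed allele, with Cre in the Lyz2 locus, so that recombination is directed to macrophages, monocytes and neutrophils. Each genotype had 1 library, made from the pooled tumours of 3 mice. No test between genotypes was therefore possible, and every interval below covers counting error at 95% confidence only, not the spread between animals. Intervals on levels and ratios take each UMI as independent, so they also leave out the spread between cells of a library.

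These chemokines belong to the ELR-positive CXC family and act through Cxcr2, a G protein-coupled receptor on neutrophils that signals through Gi, beta-arrestin and Rac to direct migration. Their genes are switched on within a short time of Toll-like receptor, interleukin-1 or TNF stimulation, largely through NF-kappaB, and their transcripts are kept short-lived by the RNA-binding protein tristetraprolin (Zfp36). In tumours, monocytes, macrophages and the neutrophils themselves are among the sources.

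The 3 ligand genes lie on the plus strand of mouse chromosome 5 in the GRCm38 build, in the order Cxcl3 (chr5:90786103-90789600), Cxcl1 (chr5:90891241-90893115) and Cxcl2 (chr5:90903871-90905938), over 119.836 kb. Each is protein coding, and the first listed transcript of each has 4 exons. Cxcr2 lies on chromosome 1 (chr1:74153989-74161246, plus strand, 3 exons). The 120 bases before the RefSeq start of each ligand gene (GRCm38.p6, plus strand) are shown because all 3 hold the same 11-base run, written in capitals, which is also where the NF-kappaB consensus (both strands) matched.
Cxcl1, chr5:90891125-90891244: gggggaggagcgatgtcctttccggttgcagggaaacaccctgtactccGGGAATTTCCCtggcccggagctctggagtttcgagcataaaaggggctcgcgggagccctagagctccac
Cxcl2, chr5:90903779-90903898: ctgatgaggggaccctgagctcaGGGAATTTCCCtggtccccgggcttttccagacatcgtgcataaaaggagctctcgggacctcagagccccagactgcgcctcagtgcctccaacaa
Cxcl3, chr5:90785981-90786100: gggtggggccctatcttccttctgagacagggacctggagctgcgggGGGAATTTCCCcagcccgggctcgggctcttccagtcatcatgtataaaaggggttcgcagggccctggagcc
The run begins 71 bases before the start in Cxcl1, 97 in Cxcl2 and 73 in Cxcl3. It was chosen as the longest run common to the 3 ligand windows, so its rarity is not independent of them. In the same 250 bases before the start, it was found on either strand in 14 of 32851 RefSeq promoter windows (0.0426%), the ligand windows included. The NF-kappaB consensus, which allows several letters at some positions, was found in 7.25%. The letters ATAAAAG, searched on the given strand, were in 3.01% of the windows and in all 3 ligand windows, at 34, 57 and 29 bases before the start of Cxcl1, Cxcl2 and Cxcl3. The run and ATAAAAG occurred together in 3 windows, those of the 3 ligands. The 250 bases before Cxcr2 held none of these letters. These matches are descriptions of the letters only.

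The WT library held 9677 barcodes and 55219440 UMIs, and the KO library 6356 barcodes and 57047535 UMIs. The filters left 8936 cells in WT, with a median depth of 4398.5 UMIs, and 5686 in KO, with a median of 8013. A total of 63 barcode sequences occurred in both libraries. Cells were grouped into 28 clusters without using the 4 genes, and classes are called "-like" because they were named from marker genes. Macrophage-like cells (497 WT, 821 KO) had UMIs of all 11 macrophage markers in both libraries, and monocyte-like cells (321 WT, 409 KO) of all 9 monocyte markers. Neutrophil-like cells (143 WT, 24 KO) had all 9 neutrophil markers in WT and 8 in KO, where Ly6g was at 0 against 1 UMI in WT. The targeted gene, Kcnj2, was at 21.5 CPM (UMIs scaled to 1e6 UMIs of the class) for WT and 9.75 for KO macrophage-like cells, from 91 and 81 UMIs. No source used here says whether its 3′ reads lie in the deleted part, so this is only a partial check of the labels. Lyz2, which holds the Cre, had 8220.2 CPM in WT against 1471 in KO macrophage-like cells. The marker lists did not part macrophage-like from monocyte-like cells cleanly, since each class had UMIs of every marker of both lists. In macrophage-like cells the macrophage markers summed to 5929 CPM (WT) and 5101 (KO), and the monocyte markers to 4446 and 5604. In monocyte-like cells the macrophage markers summed to 1694 and 1965 CPM, and the monocyte markers to 6650 and 10310.

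Cxcl2, also known as MIP-2, was highest in the neutrophil-like, macrophage-like and monocyte-like cells of both libraries, and its summed level in each differed little between the libraries. In neutrophil-like cells it stood at 49190.5 CPM (WT) and 52747 CPM (KO). In macrophage-like cells WT held 16502 CPM (counting interval 16379.9 to 16625) and KO 17655 CPM (17565 to 17746). In monocyte-like cells the levels were 6269 CPM (WT) and 6525 CPM (KO). The log2 ratio of KO over WT was 0.10 in neutrophil-like, 0.10 in macrophage-like and 0.06 in monocyte-like cells. A gene was called higher or lower in KO when its log2 ratio was at least 0.5 in size, its counting interval lay on 1 side of 0 and it had at least 20 UMIs over both libraries; Cxcl2 was called neither in these 3 classes.

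More KO than WT macrophage-like cells held Cxcl2, although the summed level was close. With each cell thinned to 2000 UMIs, 76.7% of WT (345 of 450; exact binomial interval 72.5 to 80.5%) and 84.8% of KO macrophage-like cells (665 of 784; 82.1 to 87.3%) had at least 1 Cxcl2 UMI. Without thinning the shares were 78.3% and 89.8%, at median depths of 8732 and 9958 UMIs. B-like cells, which gave the background of free RNA, held Cxcl2 in 12.7% of WT and 13.9% of KO cells at the same thinned depth (median 2448 and 3148 UMIs before thinning). Per cell, the median was 70.6 Cxcl2 UMIs per 10000 UMIs in WT and 121 in KO macrophage-like cells, while 99% of cells lay below 822 in WT and 676 in KO. The class held 2 clusters in unequal parts, and the one poor in Cxcl2 made up 64 of 497 WT but 49 of 821 KO cells. In the larger cluster alone the medians were 108 and 136, and the thinned shares 82.0% (341 of 416; 77.9 to 85.5%) and 88.0% (661 of 751; 85.5 to 90.3%). Of the monocyte-like cells, 56.9% (WT) and 62.9% (KO) held it at this depth, with overlapping intervals (51.2 to 62.4% and 58.0 to 67.6%).

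**Figure D1:**
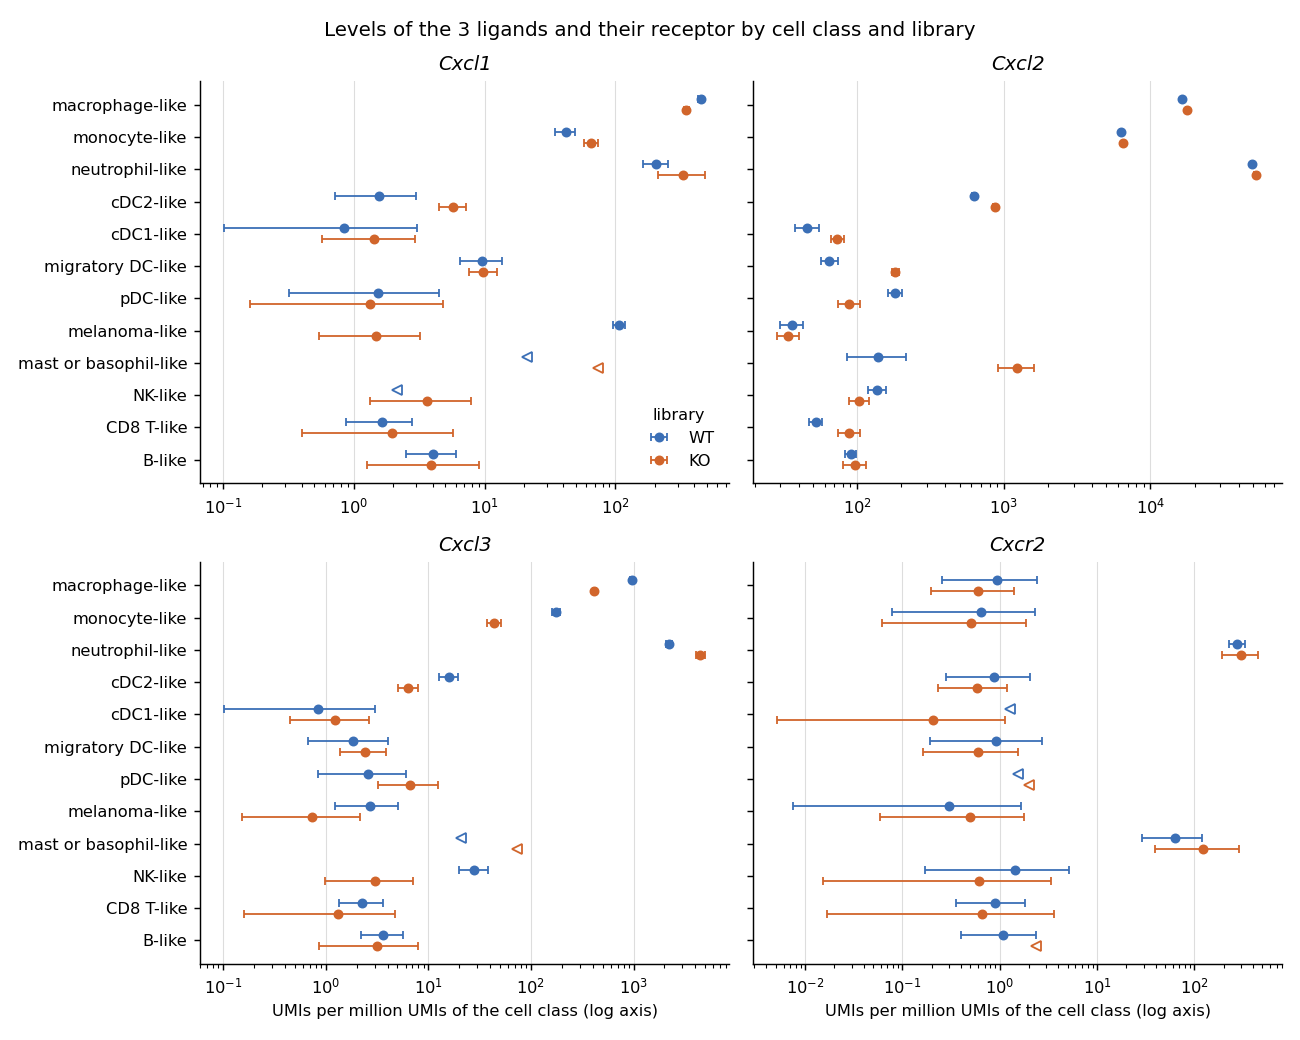
Levels of each gene (CPM of the class, log axis) in 12 cell classes of the WT (blue) and KO (orange) libraries; bars are exact Poisson 95% counting intervals, and open triangles mark classes with no UMI, placed at the level of 3 counts. Cxcl2 and Cxcl3 peak in macrophage-like, monocyte-like and neutrophil-like cells, and Cxcr2 in neutrophil-like cells (275 CPM in WT, 303 in KO). Cxcl1 peaks in macrophage-like and neutrophil-like cells. In WT its level in melanoma-like cells (107 CPM, from 6 cells) lies above that in monocyte-like cells (41.6 CPM).

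Cxcl3, the third ligand of the cluster, was the member with the largest difference between the libraries in macrophage-like cells. WT held 956 CPM (927 to 986; 4044 UMIs) and KO 416 CPM (402 to 430.2; 3455 UMIs), a log2 ratio of -1.20 (-1.27 to -1.13), or 2.30-fold more in WT. In monocyte-like cells WT held 175 CPM (546 UMIs) and KO 43.6 CPM (171 UMIs), a log2 ratio of -2.00 (-2.26 to -1.75). Cxcl3 was thus the only ligand of the 3 called lower in macrophage-like cells, where 6.59% of 11086 genes tested were called lower and 6.86% higher. It was also the only one called lower in monocyte-like cells, where 10.9% of 10068 genes were called lower and 7.68% higher. The share of macrophage-like cells with a Cxcl3 UMI at 2000 UMIs per cell was 20% in WT (90 of 450; 16.4 to 24.0%) and 12.9% in KO (101 of 784; 10.6 to 15.4%). In B-like cells it was 0.823% in WT and 0.906% in KO.

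Cxcl3 was concentrated in few cells. The 10% of macrophage-like cells with the most Cxcl3 UMIs held 92.1% of them in WT and 94.2% in KO, against 44.5% and 34.5% for Cxcl2. Without the 5 macrophage-like cells with the most Cxcl3 UMIs in each library, the log2 ratio was -1.05. Among monocyte-like cells, the top 5 held 62.5% of the Cxcl3 UMIs in WT and 69.6% in KO, and without them the ratio was -2.31. At a clustering resolution of 1.6 the monocyte-like ratio was -0.25 (-0.43 to -0.06). Over macrophage-like and monocyte-like cells together it was -1.07, and -1.14 at that resolution.

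RNA of other cell types was unequal between the libraries in these classes. The 8 B markers summed to 173 CPM in WT and 15.9 CPM in KO macrophage-like cells, and to 1110.1 and 55.1 CPM in monocyte-like cells. The 7 CD8 T markers summed to 222 and 37.6 CPM in macrophage-like cells and to 277 and 43.9 CPM in monocyte-like cells. The 9 neutrophil markers summed to 247 and 154 CPM in macrophage-like cells, but they did not all move alike. Retnlg, Mmp9 and Ly6g were at 0 in KO, from 12, 18 and 1 UMIs in WT. S100a8, S100a9 and G0s2 also stood at a lower level in KO. Csf3r (31.9 CPM in WT, 44.7 in KO), Il1r2 (33.1 and 67.8) and Hdc (27.0 and 33.5) stood at a higher level in KO. Without macrophage-like cells holding an S100a8 or S100a9 UMI, the Cxcl3 log2 ratio was -1.10, and without those holding a B or CD8 T marker UMI it was -1.23. Without monocyte-like cells holding a B or CD8 T marker UMI it was -0.83, from 93.7 CPM in 121 WT cells and 52.8 CPM in 327 KO cells.

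Within macrophage-like cells, Cxcl3 was called lower in those with an Arg1 UMI and neither in the others (Arg1, arginase 1, marks an alternatively activated or suppressive state), a split chosen after the values were seen. Monocyte-like cells did not divide in this way. These cells made up 33.6% of WT (167 cells) and 31.8% of KO macrophage-like cells (261 cells), with median depths of 8834 and 11020 UMIs. In them Cxcl3 stood at 2480.4 CPM (WT) and 758 CPM (KO), a log2 ratio of -1.71 (-1.79 to -1.63). In the 330 WT and 560 KO cells without an Arg1 UMI it was at 208 and 223 CPM, a log2 ratio of 0.10 (-0.04 to 0.25). Cxcl1 followed the same split, with 937 and 584 CPM in cells with an Arg1 UMI (log2 ratio -0.68) and 210 and 218 CPM in the others (0.05). Cxcl2 was at 25334 and 23226 CPM with an Arg1 UMI and at 12169 and 14517 CPM without. In monocyte-like cells, the 304 WT and 388 KO cells without an Arg1 UMI still had Cxcl3 at 164 and 45.9 CPM, a log2 ratio of -1.83 (-2.10 to -1.58) that was called lower, and the 17 WT and 21 KO cells with one had 70 and 2 Cxcl3 UMIs. Arg1 itself had 791 CPM in WT against 469 in KO macrophage-like cells, so a cell's chance of an Arg1 UMI was not the same in both libraries, and its part in these values was not tested.

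**Figure D2:**
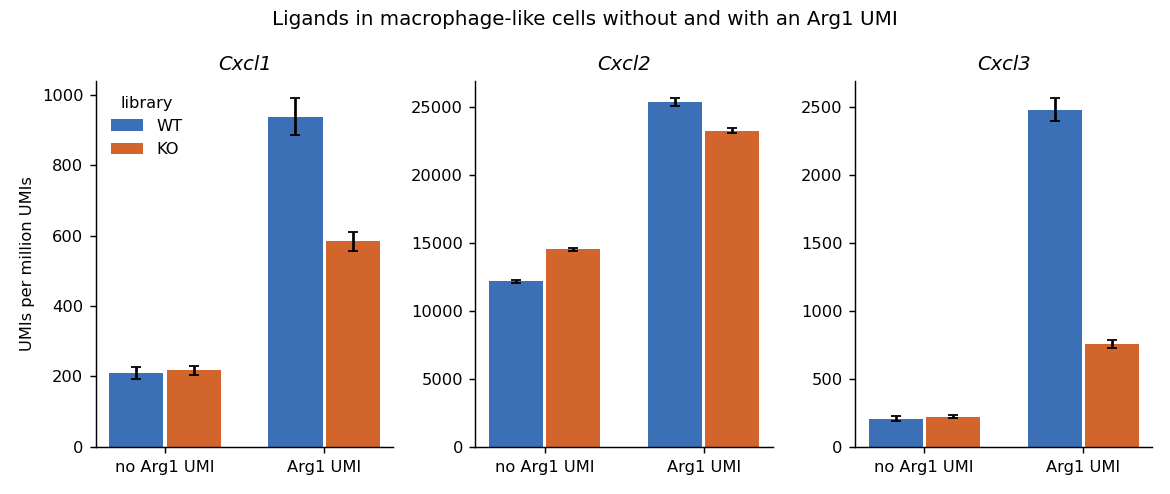
Levels of the ligands (CPM, linear axis from 0) in macrophage-like cells without and with an Arg1 UMI, for the WT (blue) and KO (orange) library; bars carry exact Poisson 95% counting intervals. Cxcl3 is at 2480.4 in WT against 758 in KO in cells with an Arg1 UMI, and at 208 against 223 in cells without.

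Cxcl1, also known as KC, was the least settled of the ligands. In macrophage-like cells WT held 449.7 CPM (1902 UMIs) and KO 349 CPM (2902 UMIs), a log2 ratio of -0.36 (-0.45 to -0.28) that was called neither. Few cells carried it: 12.2% of WT and 10.6% of KO macrophage-like cells at 2000 UMIs, against 11 of 1094 and 2 of 331 B-like cells. Without the 5 cells with the most Cxcl1 UMIs in each library the ratio was -0.07. In monocyte-like cells Cxcl1 stood at 41.6 CPM (WT) and 65.3 CPM (KO), a log2 ratio of 0.65 (0.34 to 0.97) that was called higher. That call rested on 10 WT and 21 KO cells, of which 5 held 93.8% and 71.1% of the UMIs. Without those 5 the ratio was 2.86, but this removed 5 of the 10 WT cells with Cxcl1 and only 5 of the 21 in KO. A rise was therefore built into that value. At a clustering resolution of 1.6 the ratio was -0.25. At 0.6 it was -0.09, close to the -0.10 of macrophage-like and monocyte-like cells together. At 0.6 the macrophage-like class had shrunk to the smaller of its 2 clusters.

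**Figure D3:**
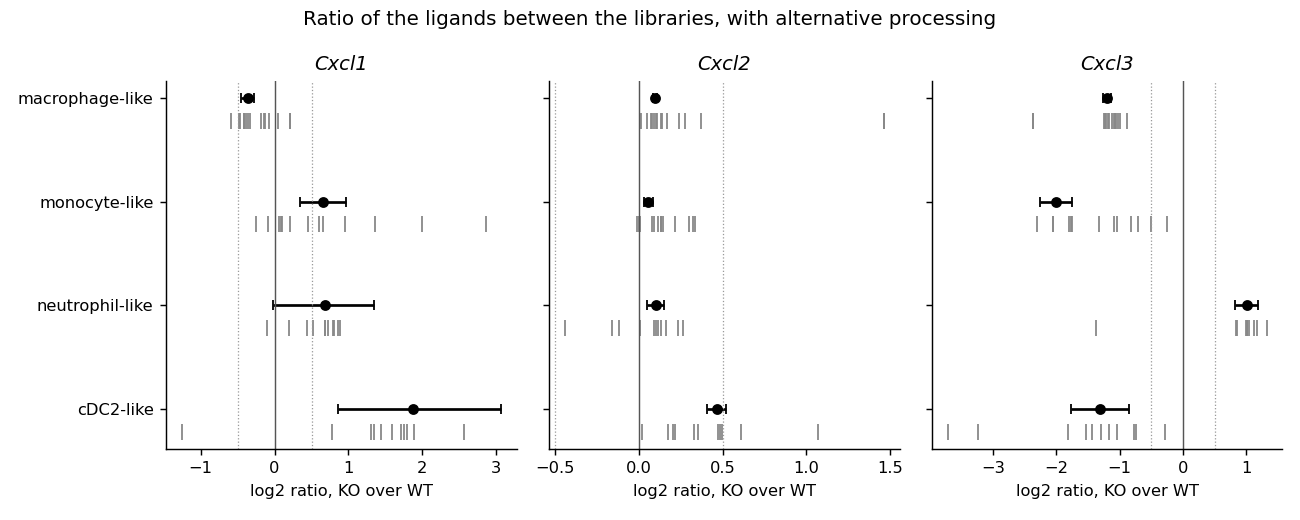
Log2 ratio of KO over WT for the 3 ligands in 4 cell classes: black points with counting intervals are the values in the text, grey ticks the values under alternative processing, and dotted lines mark 0.5 in either direction. In macrophage-like cells the alternatives for Cxcl3 lie between -1.24 and -0.89 apart from a tick at -2.37, which rests on 6 WT and 1 KO UMIs, while those for Cxcl1 lie on both sides of 0.

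The ligands overlapped in the same cells, with Cxcl2 as the common one. At 2000 UMIs per cell, 97.8% of WT and 100% of KO macrophage-like cells with Cxcl3 also had Cxcl2. The reverse share, of Cxcl2-holding cells that also had Cxcl3, was 25.5% in WT and 15.2% in KO. All 3 ligands were found in 29 of 450 WT (6.44%) and 26 of 784 KO cells (3.32%). None was found in 22.7% of WT and 14.9% of KO macrophage-like cells. The 2 macrophage-like clusters differed: the larger, led by Arg1, Ccl7 and Ccl2 (433 WT and 772 KO cells), held Cxcl2 at 17449 CPM (WT) and 18080.5 CPM (KO). The smaller, led by Ccl8, Pf4 and complement genes (64 WT and 49 KO cells), held it at 138 and 381 CPM, from 32 and 76 UMIs.

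Most ligand UMIs of both libraries, which were made from sorted CD45+ cells and not from whole tumours, were in macrophage-like cells. They held 58.0% of the Cxcl2 UMIs of kept cells in WT and 75.6% in KO, 69.3% and 81.7% of those of Cxcl3, and 72.8% and 85.9% of those of Cxcl1. Neutrophil-like cells held 17.2% of the Cxcl2 UMIs in WT and 2.07% in KO. Melanoma-like cells held 13.7% of the Cxcl1 UMIs in WT, from 6 cells, and 0.178% in KO. Of the kept cells other than melanoma-like ones, macrophage-like cells made up 5.64% in WT against 14.7% in KO, and neutrophil-like cells 1.62% and 0.429%. Over all kept cells Cxcl2 stood at 2215 CPM (WT) and 3463 CPM (KO), a log2 ratio of 0.64, against 0.10 and 0.06 within macrophage-like and monocyte-like cells. These shares come from 1 sort and 1 library per genotype, and their spread between animals is unknown.

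**Figure D4:**
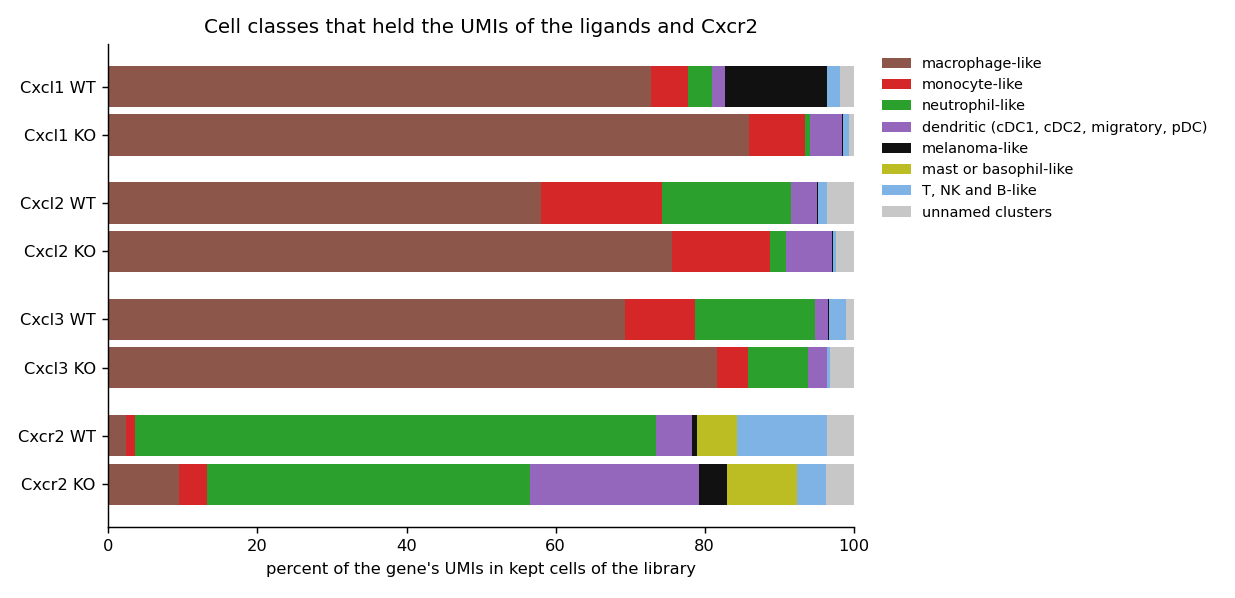
Percent of each gene's UMIs in kept cells that lay in each group of cell classes, 1 bar per gene and library. Macrophage-like cells hold most ligand UMIs (58.0 to 85.9%), and neutrophil-like cells hold 69.9% of the Cxcr2 UMIs in WT and 43.4% in KO.

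Neutrophil-like cells also held ligand RNA. For Cxcl3, WT held 2229 CPM (939 UMIs, 64 of 143 cells) and KO 4489 CPM (341 UMIs, 10 of 24 cells), a log2 ratio of 1.01 (0.83 to 1.19) that was called higher. In this class 6.36% of 3018 genes were called higher and 7.92% lower. Of the KO UMIs, 5 cells held 90.3%. Leaving out the 5 top cells of each library gave a ratio of -1.38, but this removed 5 of the 10 KO cells with Cxcl3 and only 5 of the 64 in WT, so a fall was built into that value. Cxcl1 had 204 CPM in WT against 329 in KO, in which all 25 UMIs came from 1 cell. The CD8 T markers summed to 883 CPM in WT and 105 CPM in KO neutrophil-like cells, and their part in these values was not tested.

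Among dendritic cells, the cDC2-like cells (474 WT, 840 KO), the type 2 conventional subset, stood above the background for Cxcl2. Cxcl2 stood at 627 CPM (WT) and 866 CPM (KO), a log2 ratio of 0.46 (0.41 to 0.52) that was called neither. The share of cDC2-like cells with Cxcl2 at 2000 UMIs was 17.1% in WT and 20.4% in KO, not far above the B-like cells, and the top 5 cells held 51.7% and 26.2% of the UMIs. Cxcl3 was at 15.8 and 6.40 CPM (91 and 77 UMIs; log2 ratio -1.31), against 3.64 and 3.13 CPM in B-like cells. The share with Cxcl3 at 2000 UMIs was 1.71% in WT and 0.487% in KO, against 0.823% and 0.906% of B-like cells, and without the 5 top cells the ratio was -0.78 (-1.93 to 0.40). Cxcl1 was at 1.57 and 5.74 CPM (9 and 69 UMIs, log2 ratio 1.87), against 4.0 and 3.9 CPM in B-like cells. At 2000 UMIs it was found in 2 of 468 WT and 5 of 822 KO cells, at or near the B-like share. In KO the top 5 cells held 72.5% of the Cxcl1 UMIs, with 16 in 1 cell, so the level there rested on few cells. The Cxcl1 ratio turned to -1.25 at a mitochondrial limit of 10%. The 8 B markers summed to 257 CPM in WT and 39.6 CPM in KO cDC2-like cells, the 7 CD8 T markers to 82.5 and 19.0 CPM and the 6 erythroid markers to 651 and 0.332 CPM, and their part in these ratios was not tested. In this class 4.84% of 11753 genes were called higher and 5.03% lower. In cDC1-like, migratory dendritic cell-like and plasmacytoid dendritic cell-like cells, the share with Cxcl2 at 2000 UMIs was between 8.61% (13 of 151 KO plasmacytoid) and 93 of 581 KO migratory cells. This was around the share in B-like and CD8 T-like cells (8.66 to 15.7%). These dendritic classes were deeper before thinning (medians of 6439.5 to 15163 UMIs), so an equal thinned share does not show whether the UMIs were background. Unthinned, cDC1-like cells held 53.2 (WT) and 105 (KO) Cxcl2 UMIs per 100 cells, migratory cells 50.6 and 192, and plasmacytoid cells 111 and 83.5. B-like and CD8 T-like cells held 27.1 to 46.9. These 3 dendritic classes were therefore not settled as sources. The calls there were higher in cDC1-like (log2 ratio 0.68; 3.36% of genes called higher and 3.47% lower) and in migratory cells (64.7 and 183 CPM; 4.63% higher, 6.86% lower), and lower in plasmacytoid cells (182 and 88.3 CPM; 3.59% higher, 4.23% lower). The Cxcl2 ratio in the classes that gave the background was 0.09 in B-like cells (90.4 and 96.2 CPM) and 0.75 in CD8 T-like cells (52.2 and 87.8 CPM). The migratory call turned to -0.16 with components centred per library and to -0.47 at a mitochondrial limit of 10%, and the plasmacytoid ratio was between -0.14 and -0.02 in 4 of 11 alternatives. Erythroid markers summed to 2963 CPM in WT and 2.01 CPM in KO plasmacytoid cells, and their part in the call was not tested.

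Melanoma-like cells (122 WT, 89 KO), which the CD45 sort should remove, were no clear source. Cxcl2 had 35.9 CPM in WT against 33.9 in KO, below the level in B-like cells (90.4 and 96.2 CPM). Per 100 cells the order was reversed, with 98.4 (WT) and 155 (KO) Cxcl2 UMIs against 27.1 and 31.4 in B-like cells. Depth was very uneven, with medians of 817.5 and 770 UMIs in class totals of 3345470 and 4071232 UMIs. Neither order therefore settles whether these cells were a source of Cxcl2. Cxcl1 had 107 CPM in WT against 1.47 in KO, but the 358 WT UMIs came from 6 cells, 1 of which held 224. The log2 ratio of -6.18 turned to between 0.48 and 0.73 in 4 of 11 alternatives, each with an interval across 0. The 9 monocyte markers summed to 425 CPM in WT and 58.5 CPM in KO melanoma-like cells, the 6 fibroblast markers to 2204 and 18.2 CPM and the 6 erythroid markers to 5570 and 0.491 CPM; their part in the Cxcl1 value was not tested. Of the 11353 genes tested in this class, 14.8% were called higher and 8.27% lower.

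Cxcr2, the receptor, was found in neutrophil-like cells at 275 CPM in WT (228 to 330; 116 UMIs) and 303 CPM in KO (192 to 454; 23 UMIs). The log2 ratio of 0.14 had a counting interval from -0.58 to 0.79, so no difference was detectable at this depth. A Cxcr2 UMI was seen in 55 of 143 WT cells (38.5%) and 10 of 24 KO cells (41.7%), at median depths of 2262 and 2721 UMIs. The second class was mast or basophil-like, with 9 UMIs in 24 WT cells (62.9 CPM, 28.8 to 119) and 5 UMIs in 9 KO cells (122 CPM, 39.7 to 286). In KO the intervals of these 2 classes overlapped. Every other named class had at most 7 Cxcr2 UMIs in a library, and macrophage-like cells had 4 in WT and 5 in KO (0.946 and 0.602 CPM).

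Over all kept cells, Cxcr2 had 166 UMIs (3.06 CPM) in WT and 53 UMIs (0.946 CPM) in KO, a log2 ratio of -1.69 (-2.17 to -1.24), while the level within neutrophil-like cells was 275 and 303 CPM. Neutrophil-like cells numbered 143 of 8814 kept cells other than melanoma-like ones in WT (1.62%, 1.37 to 1.91%) and 24 of 5597 in KO (0.429%, 0.275 to 0.637%). Cells with UMIs of at least 4 of the 9 neutrophil markers, whatever their cluster, numbered 117 in WT and 23 in KO, and held 116 and 23 Cxcr2 UMIs. In KO neutrophil-like cells, 5 of the 10 cells with Cxcr2 held 73.9% of its UMIs. Leaving out the 5 top cells of each library gave a log2 ratio of -1.25, a value lowered by the unequal share removed, since WT had 55 such cells.

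The genes most like each member were ranked over 30 sums, 15 cell classes in each of 2 libraries, by Pearson correlation of log2(CPM + 10) among 6751 genes; sums of a library share its depth and free RNA. Cxcl2 was most like Clec4e (0.985), Clec5a (0.971) and Cebpb (0.970), which encode 2 myeloid lectin receptors and a myeloid transcription factor. Cxcl3 was most like Il1a (0.966), the interleukin-1 alpha gene, and Acod1 (0.962), which makes itaconate. Cxcl1 was most like Inhba (0.963), an activin subunit, and Hmox1 (0.931), haem oxygenase 1. Cxcr2 was most like Il1f9 (0.997), which encodes interleukin-36 gamma, and Mrgpra2b (0.996). In the other classes used Cxcr2 was at most 4.34 CPM, below the added 10, so its values rest largely on the neutrophil-like sums. Over single macrophage-like cells, Cxcl2 was most like Nfkbia, an NF-kappaB inhibitor and target, in both libraries (0.716 over 497 WT cells, 0.646 over 821 KO cells). Cxcl3 correlated with Arg1 at 0.419 in WT and 0.297 in KO cells, and with Cxcl2 at 0.422 and 0.345.

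In macrophage-like cells, 16 of 78 measured genes of the surrounding pathway lists (20.5%) were called higher in KO and 7 (8.97%) lower, against 6.86% and 6.59% of all genes tested. Of the NF-kappaB subunits and feedback genes, 4 of 10 were called higher and none lower, with a list median of 0.47 against 0.01 over all genes tested. They were Tnfaip3, the A20 ubiquitin editor (429 CPM in WT, 763 in KO; log2 ratio 0.83), Nfkbiz (1054 and 1639; 0.64), Nfkb1 (227 and 328; 0.53) and Nfkb2 (44.9 and 63.8; 0.51). Zfp36, whose protein destabilises chemokine transcripts, was called higher (1807 and 2767 CPM; 0.61), alone among 6 mRNA decay regulators. Of 5 measured inducing cytokines, Csf3, the granulocyte growth factor, was called higher (7.09 and 14.7 CPM; 1.05), and Tnf (1365 and 1759 CPM; 0.37), Il6 (48.5 and 62.4; 0.36) and Il1a (268 and 223; -0.27) were called neither. Of 10 measured receptors and adaptors of the inducers, Il1rap (0.57) and Tlr2 (0.53) were called higher and none lower. No measured gene of these 4 lists was called lower, where 6.59% of all genes tested were. The part of these genes in the Cxcl3 value was not tested.

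**Figure D5:**
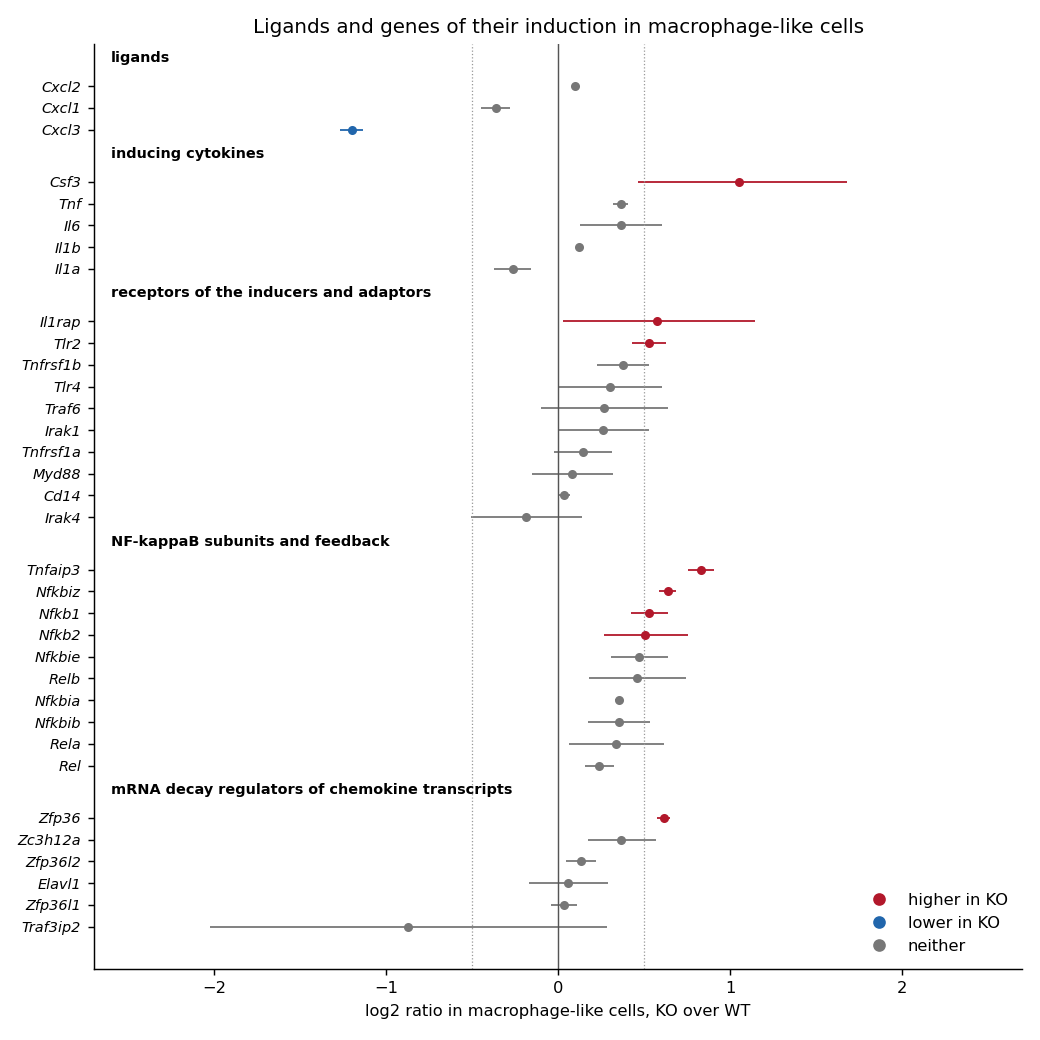
Log2 ratio of KO over WT in macrophage-like cells for the ligands and for 4 lists of genes that induce or limit them; bars are counting intervals, dotted lines mark 0.5, and colours give the call. Cxcl3 is at -1.20 while Tnfaip3, Nfkbiz, Nfkb1, Nfkb2 and Zfp36 lie between 0.51 and 0.83.

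The remaining lists in macrophage-like cells were mixed. Ppbp, another Cxcr2 ligand, was called lower (32.6 CPM in WT, 16.9 in KO; log2 ratio -0.95). Of 6 measured receptors for other neutrophil attractants, Cxcr4 (0.68) and Fpr2 (0.66) were called higher. None of 13 Cxcr2 signalling genes was called in either direction. Of 14 other chemokines, 4 were called higher, led by Ccl22 (4.73 and 14.7 CPM; 1.64) and Ccl24 (74.2 and 175; 1.24), and 2 lower, among them Ccl5 (509 and 242; -1.07). Of 12 neutrophil genes, 4 were called lower, with S100a9 at 63.6 CPM in WT and 1.93 in KO (-5.04) and S100a8 at 69.0 and 4.09 (-4.08), and 2 higher, among them Il1r2 (33.1 and 67.8; 1.03).

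In monocyte-like cells, 11 of 75 measured list genes were called higher and 13 lower, where 7.68% and 10.9% of all genes tested were. Il1a was called lower (34.6 CPM in WT, 10.5 in KO; log2 ratio -1.73), the same direction as Cxcl3, while Il1b was called neither (4936 and 3774 CPM; -0.39). Rela was the only NF-kappaB list gene of 10 called higher (34.9 and 50.8 CPM; 0.54). Mif, the other Cxcr2 ligand measured there, was called lower (281 and 147 CPM; -0.94). In cDC2-like cells 11 of 71 list genes were called higher and 3 lower (4.84% and 5.03% of all genes tested), with Il1a again among the lower (17.9 and 7.98 CPM; -1.17). In neutrophil-like cells 9 of 60 list genes were called higher and 6 lower, where 6.36% and 7.92% of all genes tested were. Ccl6 (667 and 2369 CPM; 1.83) and Ccl4 (4919 and 9741; 0.99), which attract other leukocytes, were among the higher, Ccl5 (1638 and 65.8; -4.64), abundant in T cells, among the lower, and none of 10 NF-kappaB list genes was called.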

How the data were processed

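The deposited matrices hold whole-number UMI counts per gene and barcode, made with Cell Ranger (version 3.1.0 per the submitters' processing notes, 4.0.0 per the file headers) on GRCm38, from 10x 3′ v3 libraries at a target of 48000 reads per cell per the labels. From these counts, a barcode was kept if it had 200 genes or more and no more than 15% mitochondrial UMIs. Scrublet's own threshold marked 0 WT and 2 KO cells, far below the expected 6%, so it did not work as a doublet filter; the marked cells were left out. Clusters came from scanpy 1.11.5 (2000 variable genes without the 4 genes, Cxcl5 and Ppbp; 30 components; 15 neighbours; Leiden resolution 1.0). A cluster was named from listed markers, of which at least 3 had to be found in at least 10% of its cells. Their level also had to be more than 2 times that of all other cells, after a small constant was added to both. Limits that left 6 clusters unnamed (doublet score 0.15, mean log2 fold under 1, low UMIs, leading cell cycle genes) were set after the clusters were seen. A difference from the study may come from rebuilt names. Unnamed clusters held 1913 WT and 827 KO cells. UMIs were summed per class and library and given as CPM with exact Poisson intervals, ratios with exact conditional binomial intervals, and shares with exact Clopper-Pearson intervals. A class with 0 UMIs was given a floor of 3 counts.

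Of the transcripts' sequence, 126 of 2159 stretches of 50 bases in Cxcl2 transcripts (5.84%) also occur in Cxcl3, and none of those in Cxcl1 occur in another gene, so a small part of the Cxcl2 and Cxcl3 reads could have been lost as multiply mapped. Of each pathway list, a gene was counted from 20 UMIs upward (both libraries summed), and up to 4 per list and class with the largest log2 ratio could be named. The lists were planned for macrophage-like, monocyte-like and cDC2-like cells; neutrophil-like cells were added after the data were seen. The members and lists were chosen with earlier results of these data known. The ratio, interval and thinning code was tested on simulated data. With 1 library per genotype no p-value was computed. No column of per-sample values was left unused. The alternatives tried are described with their effect at the end.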

Additional observations from a re-analysis of the deposited data

Results flagged for a closer look

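In 3 of the genes, cell classes differed in opposite directions between the libraries; with 1 library per genotype, none of these differences was tested. Cxcl3 had a log2 ratio of KO over WT of -1.20 in macrophage-like, -2.00 in monocyte-like and -1.31 in cDC2-like cells. It was 1.01 in neutrophil-like cells, where 5 of 24 KO cells held 90.3% of the UMIs. Over the alternatives Cxcl3 ran from -2.37 to -0.89 in macrophage-like and from -2.31 to -0.25 in monocyte-like cells. The range was -3.71 to -0.29 in cDC2-like and -1.38 to 1.32 in neutrophil-like cells. Cxcl1 had a ratio of 0.65 in monocyte-like and 1.87 in cDC2-like cells, against -6.18 in melanoma-like cells, where 6 WT cells held all 358 UMIs. The cDC2-like value, for which the top 5 KO cells held 72.5% of the UMIs, turned to -1.25 at a mitochondrial limit of 10%. The monocyte-like value turned to -0.25 at a clustering resolution of 1.6. At 0.6 it turned to -0.09, close to that of macrophage-like and monocyte-like cells together (-0.10). The melanoma-like value turned to between 0.48 and 0.73 in 4 of 11 alternatives. Cxcl2 had a ratio of 1.496 in migratory dendritic cell-like cells (64.7 CPM in WT, 183 in KO) and -1.04 in plasmacytoid dendritic cell-like cells (182 and 88.3 CPM). The top 5 migratory cells accounted for 33.8% (WT) and 39.8% (KO) of its UMIs there, and the top 5 plasmacytoid cells for 70.6% and 53.0%. The thinned share of cells with a UMI was around that of B-like and CD8 T-like cells in both classes, at unequal depths before thinning. The migratory value turned to -0.16 with components centred per library and to -0.47 at a mitochondrial limit of 10%.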

How the results depend on the processing

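No paired analysis was possible because each genotype had a single library. Of 335 alternative values, 164 stayed within the counting interval of the reported value, 161 left it and 10 changed the sign of a called ratio; causes were not tested unless named. All values here are log2 ratios of KO over WT. In macrophage-like cells Cxcl3 stayed negative in every alternative run. At resolution 0.6 that class shrank to the smaller macrophage-like cluster, with Cxcl1, Cxcl2 and Cxcl3 at 0.21, 1.46 and -2.37 (the same as for that cluster alone; Cxcl3 from 6 WT and 1 KO UMIs, with an interval of -7.89 to 0.67), and at 1.6 they were -0.13, 0.24 and -1.02. With components centred per library they were -0.19, 0.17 and -1.12, with a mitochondrial limit of 10% 0.044, 0.37 and -0.89, and without the 6% highest doublet scores -0.14, 0.27 and -0.998. Without the 5 top cells they were -0.072, 0.14 and -1.05, and as means over cells -0.47, 0.14 and -1.07. Thinning gave -0.58 for Cxcl1 and -1.07 for Cxcl3. Cxcl2 was 0.075 with the 4 genes used in clustering and 0.079 scaled by the median ratio. In choices made after seeing the data, leaving out cells with B or CD8 T markers gave -0.48 for Cxcl1 and 0.015 for Cxcl2, leaving out cells with S100a8 or S100a9 gave -1.10 for Cxcl3, and the larger cluster alone gave 0.051 for Cxcl2.

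In monocyte-like cells Cxcl1, Cxcl2 and Cxcl3 were -0.085, 0.21 and -1.05 at resolution 0.6, and Cxcl1 and Cxcl3 were -0.25 and -0.25 at 1.6. The values at 0.6 were close to those of macrophage-like and monocyte-like cells together (-0.097, 0.21 and -1.07). At that resolution the macrophage-like class held only the smaller macrophage-like cluster. Centring gave 0.082, 0.30 and -0.51, a mitochondrial limit of 25% 0.065, 0.11 and -1.32, the 5 top cells left out 2.86, 0.13 and -2.31, and thinning 0.20, 0.14 and -1.75. The 2.86 for Cxcl1 was raised by construction, since 5 of 10 WT but 5 of 21 KO cells with Cxcl1 were left out. A mitochondrial limit of 10% gave -0.0084 for Cxcl2 and -0.71 for Cxcl3, and leaving out high doublet scores 0.093 and -1.09. With the 4 genes used in clustering Cxcl1 was 1.99 and Cxcl2 0.0019; scaling by the median ratio gave 0.0049 and means over cells 0.15 for Cxcl2. After seeing the data, leaving out cells with B or CD8 T markers gave 0.10, 0.32 and -0.83, and leaving out cells with S100a8 or S100a9 gave 1.35 for Cxcl1 and 0.33 for Cxcl2. Elsewhere, leaving out the 5 top cells gave -1.25 for Cxcr2 and -1.38 for Cxcl3 in neutrophil-like cells, where it took 5 of 24 KO but 5 of 143 WT cells and so lowered both by construction. Cxcl1 in cDC2-like cells was -1.25 at a mitochondrial limit of 10%. Cxcl2 in migratory dendritic cell-like cells was -0.16 with centring and -0.47 at that limit. Cxcl1 in melanoma-like cells was 0.50 at both resolutions, 0.48 at that limit and 0.73 without high doublet scores. With 1 library each, depth limits only the counting error, and the spread between mice is unknown.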

Other observations

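An unnamed cluster of low depth (432 WT and 372 KO cells) also held Cxcl2, at 3399 CPM (WT) and 2997 CPM (KO), with Cxcl3 at 26.5 and 19.9 CPM; its leading genes, among them Gm26917 and Gm42418, named no cell class. The 741 WT and 670 KO barcodes removed by the filters held Cxcl2 at 1453 and 1649 CPM. In natural killer cell-like cells, 39 Cxcl3 UMIs in WT came from 4 cells, 1 of which held 28. In mast or basophil-like cells, 47 of the 50 Cxcl2 UMIs in KO came from 1 of 9 cells.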
